A study of Mus musculus with 32 samples.

Results

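The genes described here are 44 genes of DNA replication, chosen by name: the origin licensing factors, the replicative helicase, the DNA polymerases and primase, the sliding clamp and its loader, the enzymes of Okazaki fragment maturation, the single-strand binding proteins, topoisomerase II alpha and ribonucleotide reductase. All 44 symbols matched 1 Ensembl gene each in the GENCODE M21 annotation, and all 44 were among the 20368 genes of the deposited gene table, with 4.19 to 252 TPM (a transcript level scaled to transcript length and to the total of its library) in every juvenile mouse. RNA was measured by poly-A RNA-seq in germ cells of wild-type C57BL/6J males, 1 mouse to a sample with both testes pooled, in 3 mice at 8 days post-partum (dpp) and 5 mice at each of 10, 12, 14, 16 and 18 dpp. In addition, 4 samples of adult pachytene spermatocytes, described by the study as pachytene and diplotene cells, had been enriched by size (STA-PUT sedimentation) from 9-week-old mice of the same strain, with 6 mice pooled in each. No group carried a treatment or a transgene. The juvenile samples were whole germ cell suspensions and not sorted stages, so a gene's level at an age is that of a mixture.

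Replication begins with licensing. The origin recognition complex (Orc1 to Orc6), Cdc6 and Cdt1 load the ring of Mcm2 to Mcm7 onto DNA, geminin (Gmnn) inhibits Cdt1, and Cdc45 and the GINS subunits join the ring to make it an active helicase. In the male germ line the last round of replication takes place in preleptotene cells, just before meiotic prophase. The long prophase that follows has no S phase, but its recombination uses single-strand binding protein, clamp, polymerases and ligase for repair. From 8 to 18 dpp the first wave of germ cells goes from spermatogonia to pachytene and diplotene spermatocytes.

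The promoters of replication genes are a known target of E2F factors, whose core site is TTTCGCG or TTTGGCG. RefSeq promoter sequences (GRCm38.p6, 250 bases before to 50 bases after a start site, both strands searched) were at hand for 36 of the 44 genes. A core was found in 14 of these 36 genes, which is 38.9%, against 725 of 27025 genes in all, which is 2.68%. With only the bases before the start site searched it was found in 6 of the 36 (16.7%) and in 2.22% of all genes. The 14 genes were Cdt1, Lig1, Mcm3, Mcm5, Mcm6, Mcm7, Mcm10, Orc1, Orc4, Pola1, Pola2, Pole2, Rfc3 and Rpa1. Several stretches are printed because they stand before genes that went different ways with age (values below), with the core in capitals, 5′ to 3′ on the strand of the gene. The first 4 belong to genes that fell, and the last 3 to genes that rose.
Mcm5, chr8:75109331-75109392, plus strand: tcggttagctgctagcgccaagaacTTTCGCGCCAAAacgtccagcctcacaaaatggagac
Mcm6, chr1:128359721-128359840, minus strand: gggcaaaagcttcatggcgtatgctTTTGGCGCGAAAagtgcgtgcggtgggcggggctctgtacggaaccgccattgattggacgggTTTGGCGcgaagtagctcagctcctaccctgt
Orc1, chr4:108579403-108579453, plus strand: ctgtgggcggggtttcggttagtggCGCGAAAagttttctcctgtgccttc
Pola1, chrX:93632261-93632317, minus strand: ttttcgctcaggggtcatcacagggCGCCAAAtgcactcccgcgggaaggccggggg
Mcm7, chr5:138171851-138171877, minus strand: ggtgacgacgTTTCGCGccaatttcgg
Pola2, chr19:5964157-5964179, minus strand: aggcaaagcgTTTGGCGggtttt
Rpa1, chr11:75348568-75348624, minus strand: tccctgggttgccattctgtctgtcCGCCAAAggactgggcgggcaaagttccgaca

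In Mcm5 and in the first stretch of capitals of Mcm6, cores of the 2 kinds on opposite strands overlap. The core began 153 bases before the RefSeq start site in Mcm5, 110 in Mcm6, 26 in Orc1, 137 in Pola1 and 216 in Rpa1, and it lay after the start in Mcm7 (base 17) and Pola2 (base 38). Among the genes with a promoter sequence, 9 of 17 that were lower at 18 than at 8 dpp had a core, as did 3 of 10 that were higher and 2 of 9 that passed the threshold in neither direction. Before the start site alone, the counts were 4 of 17, 1 of 10 and 1 of 9. No promoter sequence was at hand for Gins1, Gins2, Gins4, Gmnn and Rfc2, which were higher. Sequences were also missing for Mcm4 and Pole, which were lower, and for Prim2, so the groups are not equally covered. The CCAAT box was found in 24 of the 36 genes (66.7%, against 41.1% of all genes), and the sequence TTTGAA of cell cycle gene promoters in 6 (16.7% against 20.2%). These matches are a description of letters in a window and not of bound sites.

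Comparing 18 with 8 dpp asks how transcripts of the replication machinery changed in the mixture as pachytene and diplotene cells appeared. It does not set cells before replication against cells after it. The study reports that spermatogonia made up most of the retrieved germ cells at every age. It also reports a fairly constant part of preleptotene and leptotene cells. The 44 genes did not move as one. With limma on log2(TPM + 1) and Benjamini-Hochberg adjustment over all 20368 genes, 19 were lower at 18 dpp and 15 were higher at an adjusted p under 0.05, and 10 passed in neither direction. Of all genes tested, 36.3% were lower and 31.8% higher, so the share of replication genes called was near that of any gene. The median log2 fold change of the 44 genes was -0.11 and that of all genes -0.09. The genes are described below by the assembly they belong to. Directions were mixed within most assemblies, and whether they were more mixed than in other sets of genes was not tested. Under median-of-ratios scaling between mice the split was 16 lower and 20 higher, and under quantile normalization 22 lower and 12 higher. All 34 genes called kept their sign under both scalings, and 31 of the 34 stayed past the threshold under each. Median-of-ratios scaling lost Orc1, Orc6 and Rrm1 and gained Orc2, Cdc45, Prim2, Rfc1 and Rfc4 as higher, by 0.27 to 0.39 on the log2 scale. Quantile normalization lost Orc3, Gins3 and Pold2 and gained Cdc6, Rfc3 and Rrm2 as lower. These were bulk samples, in which fewer cells of a type and less RNA per cell cannot be told apart.

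**Figure D1:**
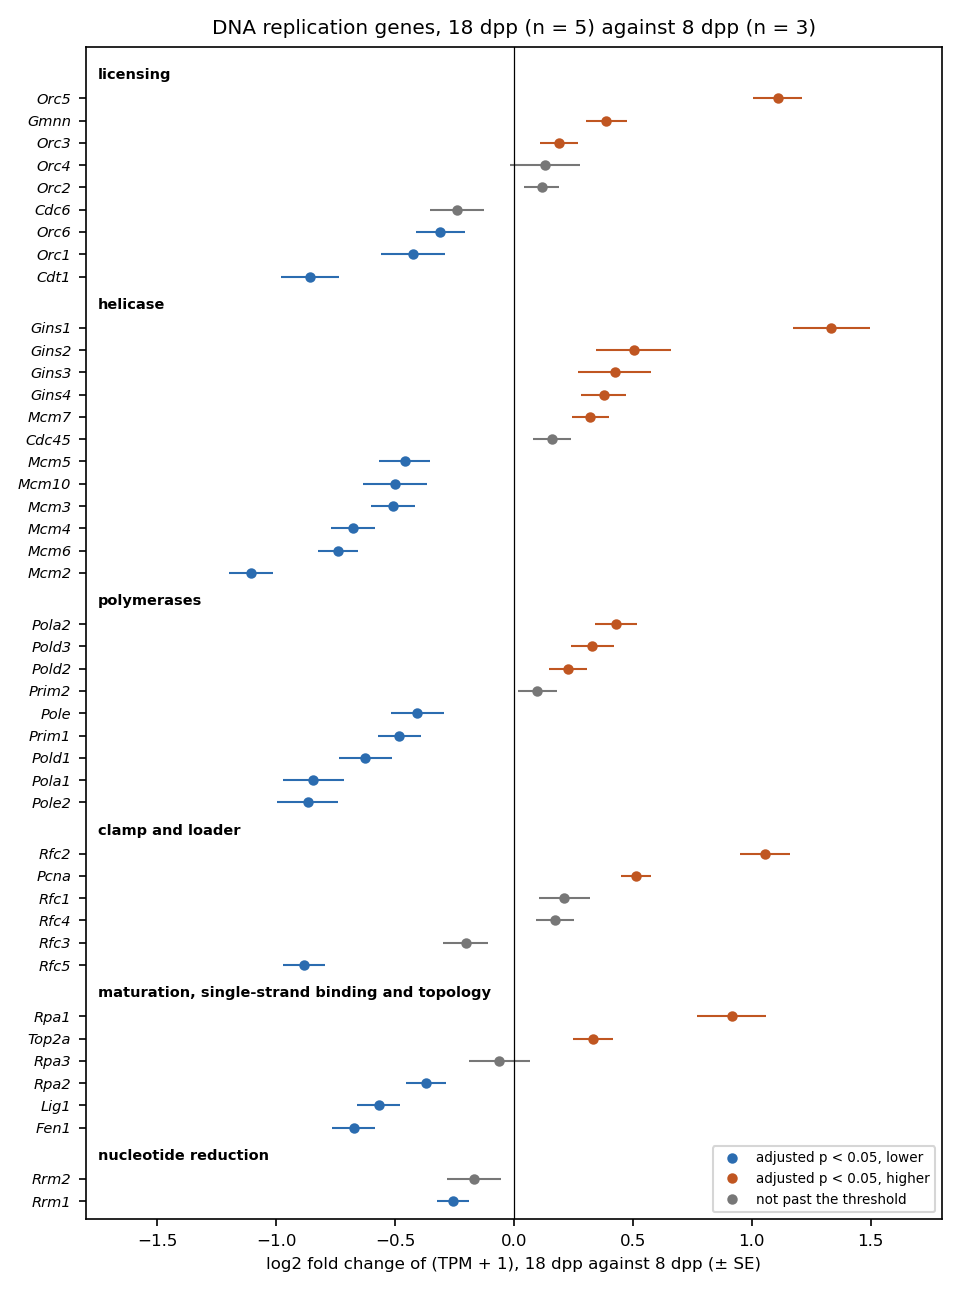
Log2 fold change of TPM + 1 from 8 dpp (n = 3 mice) to 18 dpp (n = 5) for the 44 genes, by role, with standard errors from limma as bars. Blue points (19 genes) were lower and orange points (15 genes) higher at an adjusted p under 0.05, and each role group but nucleotide reduction holds both.

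In the helicase ring, Mcm2 to Mcm6 all fell from 8 to 18 dpp. Mcm2 (chr6:88883474-88898780, minus strand) had 117, 109 and 124 TPM in the 3 mice at 8 dpp and 47.3, 48.3, 49.0, 61.4 and 64.2 TPM in the 5 mice at 18 dpp, so that every mouse at 18 dpp was below every mouse at 8 dpp. Its log2 fold change was -1.11 ± 0.09 (SE, limma adjusted p = 3.37e-11). The changes of the other 4 were -0.51 for Mcm3, -0.68 for Mcm4, -0.46 for Mcm5 and -0.74 for Mcm6, with standard errors of 0.08 to 0.11 and adjusted p-values of at most 0.000414. Only in Mcm5 did mice of the 2 ages overlap, with 88.6 TPM in the lowest mouse at 8 dpp and 90.4 TPM in the highest at 18 dpp.

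Mcm7, the remaining subunit of the ring, rose. Its levels were 122, 112 and 127 TPM at 8 dpp and 162, 171, 144, 129 and 149 TPM at 18 dpp, with every mouse at 18 dpp above every mouse at 8 dpp, and its log2 fold change was 0.32 ± 0.08 (SE, limma adjusted p = 0.000538). Ratios within a library, here and below for Gmnn, Prim2, Rfc2 and Rpa1, pair genes whose levels moved apart with age. They describe that parting and do not test it. Within a library, where a scaling factor cancels, Mcm7 over the mean of Mcm2 to Mcm6 was 1.19 to 1.22 in the 3 mice at 8 dpp, 1.41 to 1.79 at 16 dpp and 1.77 to 3.20 at 18 dpp. In the 4 adult samples it was 22.1 to 30.7. There Mcm7 stood at 146, 141, 134 and 137 TPM while Mcm2 stood at 1.54, 1.09, 1.54 and 1.17 TPM. Mcm4 lay between 1.29 and 2.21, Mcm5 between 3.40 and 4.99, Mcm3 between 4.83 and 7.05, and Mcm6 between 11.3 and 14.7 TPM in these samples. The Mcm7 gene (chr5:138164583-138172422, minus strand) overlaps Ap4m1 and Cops6 on the other strand in 7.25% and 1.45% of its exonic bases. Ap4m1 was at 24.1 TPM at 8 dpp, 34.9 TPM at 18 dpp and 37.4 TPM in the adult samples, and Cops6 at 151, 166 and 178 TPM. No strand protocol is stated, so reads in the bases shared with Mcm7 cannot be assigned to 1 gene with certainty. Its main coding transcript, Mcm7-201, took 78.5% of the gene's TPM at 8 dpp and 84.6% at 18 dpp.

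**Figure D2:**
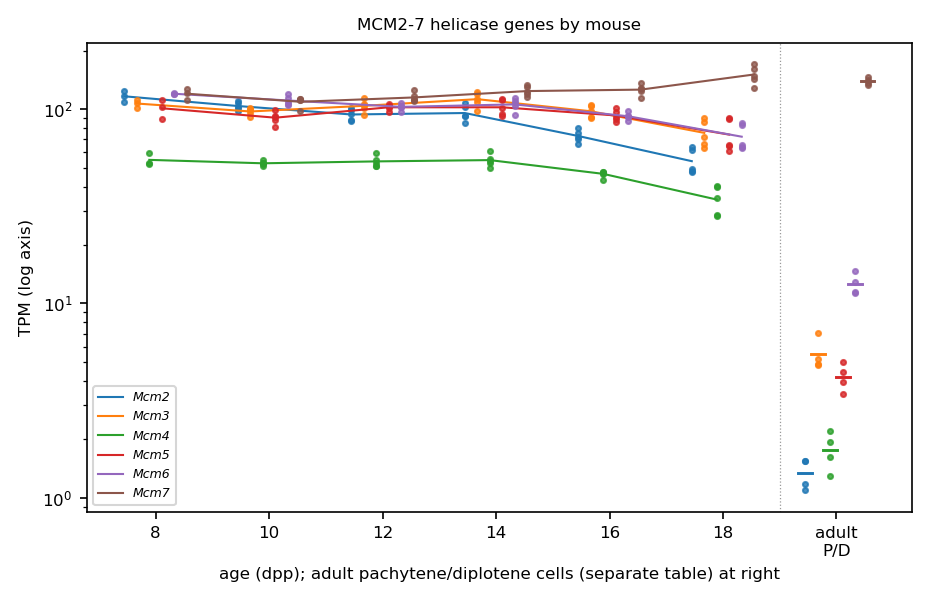
TPM (log axis) of Mcm2 to Mcm7 in each of the 28 mice by age in dpp, with lines through the means, and in the 4 adult pachytene/diplotene samples at right, with a dash for the mean. Mcm7 is above the other 5 in every mouse at 18 dpp and is at 134 to 146 TPM in the adult samples, where the other 5 are at 1.09 to 14.7 TPM.

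Of the proteins that activate the ring, the 4 GINS genes rose from 8 to 18 dpp, Cdc45 did not pass the threshold and Mcm10 fell. Gins1 (chr2:150905400-150931280, plus strand) had the largest log2 fold change of the 44 genes and rose from 16.7, 21.9 and 21.5 TPM at 8 dpp to 53.5, 59.5, 47.9, 57.0 and 42.5 TPM at 18 dpp, without overlap (log2 fold change 1.33 ± 0.16 SE, limma adjusted p = 3.83e-08). Its adult samples had 64.3, 59.6, 71.7 and 54.7 TPM and overlapped the 18 dpp mice. Gins4 went from 52.1, 43.9 and 51.5 TPM to 69.4, 71.9, 66.0, 58.9 and 55.2 TPM (0.38 ± 0.09, adjusted p = 0.000983), and the adult samples, 83.0 to 86.5 TPM, were above all of these mice. Gins3, the least abundant, had 6.53, 6.69 and 6.26 TPM at 8 dpp and 8.72, 8.75, 7.15, 9.53 and 11.6 TPM at 18 dpp (0.42 ± 0.15, adjusted p = 0.0161). It was down at 3.36 to 3.83 TPM in the adult samples. The call for Gins3 was lost without mouse 3 of 8 dpp (adjusted p = 0.0514), and over the 6 ages together it did not pass (adjusted p = 0.0733).

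Gins2 rose at the level of the gene, from 29.9, 23.3 and 31.8 TPM to 54.5, 41.3, 40.9, 32.8 and 34.6 TPM (0.50 ± 0.16, limma adjusted p = 0.00647), a call that was lost without mouse 2 of 8 dpp (adjusted p = 0.0687). The mean of its coding transcript showed no such rise, and change by transcript was not tested. Gins2-201, the only protein-coding transcript of the gene in the annotation, stood at 15.8 ± 3.98 TPM (SD over 3 mice) at 8 dpp and at 16.5 ± 2.26 TPM (SD over 5 mice) at 18 dpp. Gins2-204, a transcript with a retained intron, went from 8.09 ± 5.31 to 21.9 ± 8.89 TPM. Of the exonic bases of Gins2, 67.3% overlap Gse1 on the other strand. Gse1 itself was at 24.6 TPM at 8 dpp and 18.4 TPM at 18 dpp. Cdc45 did not pass the threshold: it had 60.9, 49.6 and 61.2 TPM at 8 dpp and 57.8 to 67.3 TPM at 18 dpp (0.16 ± 0.08, adjusted p = 0.0774), and it passed without mouse 3 of 8 dpp (adjusted p = 0.0451) or without mouse 1 of 18 dpp (adjusted p = 0.0372). Mcm10, an initiation factor, fell at the level of the gene by 0.50 ± 0.13 on the log2 scale (adjusted p = 0.00185), with overlap between the ages. The mean of the gene went from 20.18 to 14.02 TPM, and that of its coding transcripts together from 13.19 to 11.19 TPM. These coding transcripts ranged from 11.88 to 14.83 TPM at 8 dpp and from 9.68 to 12.22 TPM at 18 dpp, with overlap. Their mean share of the gene was 65.93% and then 81.46%, and their change was not tested.

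Among the licensing factors 3 fell, 3 rose and 3 did not pass. Cdt1, the loader of the ring, had 34.0, 39.4 and 36.6 TPM at 8 dpp and 15.4, 17.5, 19.9, 25.6 and 21.8 TPM at 18 dpp, without overlap (log2 fold change -0.86 ± 0.12 SE, limma adjusted p = 5.54e-07). Its inhibitor Gmnn went from 83.2, 66.8 and 77.4 TPM to 99.2, 108, 109.5, 84.0 and 97.1 TPM, the lowest mouse at 18 dpp standing just above the highest at 8 dpp (0.39 ± 0.09, adjusted p = 0.000289). In the adult samples Cdt1 was at 0.52 to 1.18 TPM and Gmnn at 122 to 137 TPM. The ratio of Gmnn to Cdt1 within a library was 1.69 to 2.45 at 8 dpp, 3.28 to 6.46 at 18 dpp and 116 to 243 in the adult samples.

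The origin recognition complex also divided. Orc5 rose from 18.4, 17.9 and 21.8 TPM to 45.7, 44.6, 42.4, 41.7 and 39.7 TPM, without overlap (1.11 ± 0.10, limma adjusted p = 2.87e-10), and the adult samples, 50.2 to 53.2 TPM, were higher again. Orc1, the subunit that in most cells comes and goes with the cell cycle, fell by 0.42 ± 0.13 (adjusted p = 0.00684), and Orc6 by 0.31 ± 0.10 (adjusted p = 0.00971). Orc1 was at 1.00 to 1.81 TPM in the adult samples, and Orc6 at 9.42 to 13.8 TPM. Both calls were lost under median-of-ratios scaling. Orc3 had 58.0, 51.6 and 63.5 TPM at 8 dpp and 62.4, 68.2, 66.0, 64.3 and 68.1 TPM at 18 dpp. These ages overlapped, and its change of 0.19 ± 0.08 (adjusted p = 0.0379) was lost in 5 of the fits that left out a mouse, those without mouse 1 or 2 of 8 dpp and without mouse 2, 3 or 5 of 18 dpp (adjusted p = 0.0541 to 0.267). The coding transcripts of Orc3 together went from 31.8 to 39.9 TPM at 8 dpp to 48.4 to 56.9 TPM at 18 dpp, without overlap. Their mean share of the gene was 63.5% and then 81.0%, and their change was not tested. Orc2 did not pass, with 51.8, 45.8 and 49.8 TPM at 8 dpp, 51.0 to 56.8 TPM at 18 dpp and 40.4 to 50.2 TPM in the adult samples (0.12 ± 0.07, adjusted p = 0.163). Of the exonic bases of Orc2, 29.8% overlap Nif3l1 on the other strand, which was at 24.5 TPM at 8 dpp and 19.8 TPM at 18 dpp. Neither Orc4 (0.13 ± 0.15) nor Cdc6 (-0.24 ± 0.11) passed. Most of the TPM of Orc4 came from transcripts without a coding annotation, and 45.6% at 8 dpp and 40.1% at 18 dpp from coding ones.

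**Figure D3:**
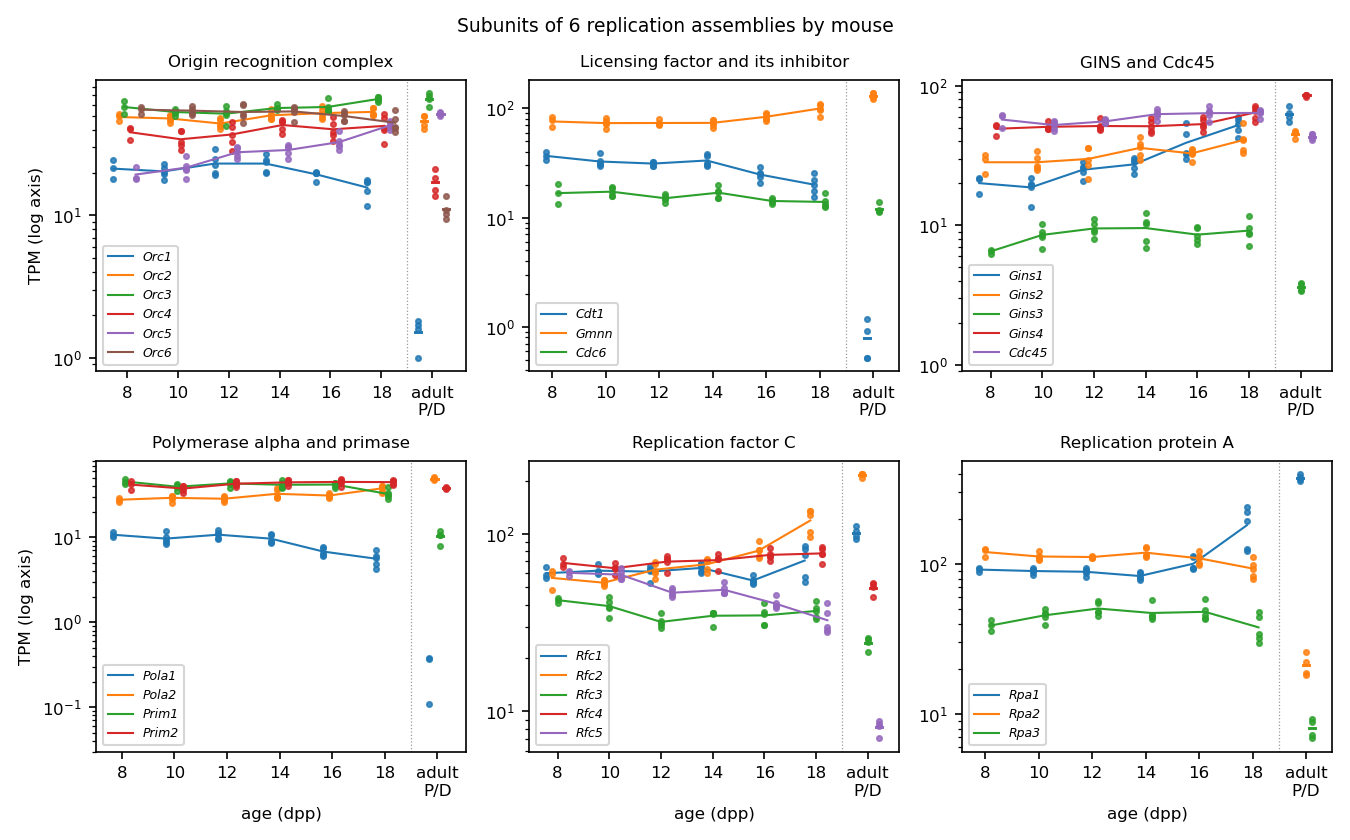
TPM (log axes) by mouse and age in dpp for the subunits of 6 assemblies, with lines through the means, and the 4 adult samples (P/D, from a separate table) at right with a dash for the mean. Orc5, Gmnn, Gins4, Pola2, Rfc1, Rfc2 and Rpa1 are higher in every adult sample than in any 18 dpp mouse. For Pola1, 1 adult sample is listed at 0 and cannot be drawn on the log axis, so no adult mean is drawn.

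The polymerases were divided in the same manner. Of 9 genes, 5 fell (Pola1, Prim1, Pold1, Pole and Pole2) and 3 rose (Pola2, Pold2 and Pold3). Pola1, the catalytic subunit of polymerase alpha, lies on the X chromosome (chrX:93304767-93632155, minus strand). It had 11.6, 9.99 and 10.6 TPM at 8 dpp and 5.72, 4.91, 4.19, 6.05 and 7.13 TPM at 18 dpp, without overlap (log2 fold change -0.84 ± 0.13 SE, limma adjusted p = 2.14e-06). It was listed in the adult samples at 0.11, 0, 0.37 and 0.38 TPM. Its partner Pola2, on chromosome 19, had 29.2, 26.4 and 27.4 TPM at 8 dpp and 39.9, 39.5, 40.2, 35.5 and 33.3 TPM at 18 dpp (0.43 ± 0.09, adjusted p = 9.29e-05), and 47.0 to 51.2 TPM in the adult samples, above every mouse.

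The 2 primase subunits differed as well. Prim1, the catalytic one, fell by 0.48 ± 0.09 (adjusted p = 3.1e-05) and was at 7.91 to 11.7 TPM in the adult samples. Prim2, the large one, had 42.8, 36.1 and 46.4 TPM at 8 dpp, 45.6, 47.7, 41.9, 41.5 and 46.3 TPM at 18 dpp and 36.5 to 38.9 TPM in the adult samples (0.10 ± 0.08, adjusted p = 0.302). Prim2 over Prim1 was 0.852 to 1.03 at 8 dpp, 1.195 to 1.63 at 18 dpp and 3.31 to 4.62 in the adult samples.

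In polymerase delta the catalytic subunit Pold1 fell by 0.63 ± 0.11 (limma adjusted p = 1.88e-05), to 43.9 to 63.6 TPM at 18 dpp and 5.84 to 9.38 TPM in the adult samples. Its accessory subunit Pold3 rose from 60.9, 48.1 and 54.3 TPM to 73.4, 76.6, 66.2, 67.0 and 60.1 TPM (0.33 ± 0.09, adjusted p = 0.00193), with 1 mouse of each age overlapping, and was at 90.7 to 94.4 TPM in the adult samples. The coding transcript Pold3-201 alone went from 23.2 ± 2.16 TPM (SD, n = 3) to 43.8 ± 4.84 TPM (SD, n = 5), a share of 42.7% and then 64.0% of the gene. Pold2 had 44.3, 47.1 and 51.3 TPM and then 53.5, 54.5, 54.6, 60.1 and 56.2 TPM (0.23 ± 0.08, adjusted p = 0.0139), a call that was lost without mouse 1 of 8 dpp (adjusted p = 0.0904). Of polymerase epsilon, Pole fell by 0.41 ± 0.11 (adjusted p = 0.00217). Pole2 fell from 13.1, 12.6 and 12.4 TPM to 5.39, 7.75, 5.87, 6.42 and 7.30 TPM (-0.87 ± 0.13, adjusted p = 1.36e-06), and was at 0.58 to 1.35 TPM in the adult samples.

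The sliding clamp Pcna was the most abundant gene of the list at 18 dpp. It rose from 168, 159 and 188 TPM to 246, 249, 252, 241 and 238 TPM, without overlap (log2 fold change 0.51 ± 0.06 SE, limma adjusted p = 6.25e-08), and the adult samples, with 267, 245, 263 and 236 TPM, overlapped the 18 dpp mice. Its loader, replication factor C, held 1 gene that rose and 1 that fell. Rfc2 (chr5:134581366-134601805, plus strand) went from 61.6, 48.5 and 59.5 TPM to 129, 134, 135, 96.2 and 102 TPM, without overlap (1.06 ± 0.10, adjusted p = 9.36e-10), and to 208 to 218 TPM in the adult samples. Rfc5 (chr5:117378103-117389047, minus strand) went from 58.2, 61.0 and 62.1 TPM to 27.9, 30.0, 28.8, 35.9 and 40.7 TPM (-0.88 ± 0.09, adjusted p = 1.91e-09), and to 7.04 to 8.78 TPM in the adult samples. Rfc2 over Rfc5 was 0.795 to 1.06 at 8 dpp, 2.51 to 4.67 at 18 dpp and 24.9 to 30.8 in the adult samples.

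Of Rfc5, 10.7% of the exonic bases overlap Wsb2 on the other strand, which was at 306 TPM at 8 dpp and 121 TPM at 18 dpp, and 15.1% of those of Rfc2 overlap Lat2, which was at 1.09 and 4.84 TPM. Of Rfc4, 12.65% of the exonic bases overlap Eif4a2 on the other strand, which was at 221 and 303 TPM. Whether reads of these neighbours were counted to the loader genes was not tested. Rfc1, Rfc3 and Rfc4 did not pass between 8 and 18 dpp. Of the 7 transcripts of Rfc1, 6 are not in the annotation used. The annotated coding transcript Rfc1-201 went from 23.4 to 21.3 TPM, a mean share of 38.8% and then 30.4% of the gene. Its change was not tested. Rfc4, with 73.5, 67.7 and 64.9 TPM and then 76.9, 67.8, 82.0, 77.3 and 84.5 TPM, did not pass (0.17 ± 0.08, adjusted p = 0.0548). It passed in 4 of the fits that left out a mouse, those without mouse 1 of 8 dpp, mouse 4 of 12 dpp, mouse 2 of 14 dpp or mouse 2 of 18 dpp (adjusted p = 0.0149 to 0.04).

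Replication protein A coats single-stranded DNA as a complex of Rpa1, Rpa2 and Rpa3, in replication and in recombination. Rpa1 (chr11:75298166-75348324, minus strand) had 94.3, 88.9 and 92.0 TPM at 8 dpp and 239.6, 223, 193, 122 and 126 TPM at 18 dpp, without overlap and with mice 4 and 5 of 18 dpp far below mice 1 to 3 (log2 fold change 0.92 ± 0.14 SE, limma adjusted p = 3.07e-06). With 368, 399, 359.6 and 378 TPM it was the highest of the 44 genes in the adult samples. Rpa2 fell by 0.37 ± 0.09 (adjusted p = 0.000392), with overlap between the ages, and was at 18.1 to 26.1 TPM in the adult samples. Rpa3 had 39.0, 35.5 and 42.2 TPM at 8 dpp and 34.4, 32.2, 30.0, 44.6 and 47.9 TPM at 18 dpp (-0.06 ± 0.13, adjusted p = 0.687), and 6.88 to 9.30 TPM in the adult samples. The sign of Rpa3 turned under median-of-ratios scaling (0.11), and with mice 1 to 3 of each age alone it passed as lower (-0.27, adjusted p = 0.0425).

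Within a library Rpa1 over Rpa2 was 0.729 to 0.805 at 8 dpp, 1.12 to 3.00 at 18 dpp and 13.8 to 22.0 in the adult samples. The coding transcript Rpa1-201 went from 66.0 ± 2.99 TPM (SD, n = 3) to 123 ± 36.2 TPM (SD, n = 5), and Rpa1-205, with a retained intron, from 25.4 ± 1.79 to 57.0 ± 18.3 TPM.

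The nuclease Fen1 and the ligase Lig1, which finish Okazaki fragments, fell by 0.67 ± 0.09 (limma adjusted p = 2.84e-07) and 0.57 ± 0.09 (adjusted p = 3.66e-06) on the log2 scale, both without overlap. They parted in the adult samples, where Fen1 was at 1.37 to 2.14 TPM and Lig1 at 25.5 to 31.0 TPM. The antisense gene Gm10143 shares 78.8% of the exonic bases of Fen1 and was itself lower at 18 than at 8 dpp (9.46 against 16.0 TPM). Tmem258, also on the other strand, shares 5.37% and was higher at 18 than at 8 dpp (213 against 127 TPM). As no strand protocol is stated, reads in the shared bases cannot be assigned to 1 gene with certainty. Top2a, which unlinks sister DNA, had 168, 130.2 and 163 TPM at 8 dpp and 184, 201, 194, 188 and 197 TPM at 18 dpp, without overlap (0.33 ± 0.09, adjusted p = 0.0012), and 149 to 158 TPM in the adult samples.

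Of ribonucleotide reductase, Rrm1 fell from 86.5, 81.1 and 91.7 TPM to 76.1, 79.2, 73.2, 61.4 and 72.0 TPM (-0.26 ± 0.07, limma adjusted p = 0.00189), a call that was lost under median-of-ratios scaling (adjusted p = 0.379). Its adult samples, 92.9 to 102 TPM, were above all of the 18 dpp mice. Rrm2 had 36.7, 28.7 and 43.3 TPM and then 30.6, 33.1, 27.6, 35.1 and 32.6 TPM (-0.17 ± 0.11, adjusted p = 0.198), and 10.9 to 12.0 TPM in the adult samples. It passed without mouse 2 of 8 dpp (adjusted p = 0.0198). Rrm1 over Rrm2 was 2.12 to 2.83 at 8 dpp and 1.75 to 2.65 at 18 dpp, with overlap. In the adult samples this ratio was 7.72 to 9.34.

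When the change took place was asked by comparing neighbouring ages. Over the 6 ages together 42 of the 44 genes differed (77.6% of all genes did), the exceptions being Orc4 and Gins3. Between 8 and 10 dpp limma called none of the 44, while 0.226% of all genes were lower and 0.977% higher. At an unadjusted limma p under 0.05 were 3 of the 44 genes and 2337 of all 20368. From 12 to 14 dpp limma again called none, while 0.0147% of all genes were lower and 0.157% higher. Unadjusted, 3 of the 44 genes and 1962 of all 20368 were under 0.05 at this step. Between 10 and 12 dpp 3 genes were lower and 3 higher, against 9.39% and 12.0% of all genes. The falls were those of Rfc5 (-0.33 ± 0.08, adjusted p = 0.0028), Rfc3 and Rrm1, and the rises those of Gins1 (0.41 ± 0.14, adjusted p = 0.0349), Orc5 (0.35 ± 0.09, adjusted p = 0.0051) and Top2a. Rrm1 went from 78.9 to 85.2 TPM at 10 dpp to 64.1 to 71.6 TPM at 12 dpp, and Top2a from 132 to 144 TPM to 149.7 to 180.1 TPM, both without overlap.

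From 14 to 16 dpp 8 genes fell and 3 rose, against 11.3% and 12.7% of all genes. Those that fell were Mcm2, Mcm4, Mcm6, Cdt1, Pola1, Rfc5, Fen1 and Lig1, and those that rose Gins1, Rfc2 and Pcna. The 3 largest changes were those of Gins1 (0.47 ± 0.14, limma adjusted p = 0.0151), Pola1 (-0.45 ± 0.11, adjusted p = 0.00424) and Cdt1 (-0.42 ± 0.10, adjusted p = 0.00463). At 14 dpp Pola1 was between 8.59 and 11.0 TPM and at 16 dpp between 6.02 and 7.76 TPM, and Cdt1 went from 29.8 to 37.8 TPM to 20.6 to 29.1 TPM, both without overlap. Gins1 overlapped at this step, with 30.2 TPM in the highest mouse of 14 dpp and 30.0 TPM in the lowest of 16 dpp. Its highest mouse of 16 dpp was mouse 1, with 54.4 TPM. Without this mouse 5 genes fell and none rose. Leaving out single mice of 14 or 16 dpp gave between 4 and 8 falls and between 0 and 4 rises.

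The largest number of changes fell between 16 and 18 dpp, as it did for all genes. At this step 16 of the 44 genes fell and 12 rose, against 30.6% and 23.4% of all genes. The falls were those of Mcm2 to Mcm6, Orc1, Cdt1, Prim1, Pold1, Pole2, Rfc5, Fen1, Lig1, Rpa2, Rpa3 and Rrm2, and the rises those of Mcm7, Gins1, Gins4, Orc3, Orc5, Gmnn, Pola2, Pold3, Rfc1, Rfc2, Pcna and Rpa1. Both steps use the 16 dpp mice, so they are not independent. The 3 largest changes were those of Rpa1 (0.79 ± 0.12, limma adjusted p = 1.2e-05), Pole2 (-0.56 ± 0.11, adjusted p = 0.000185) and Rfc2 (0.55 ± 0.09, adjusted p = 1.84e-05). Rpa1 had been at 92.3 to 112 TPM at 16 dpp and at 78.6 to 94.6 TPM at every earlier age. The split between falls and rises at this step depended on the scaling, with 9 falls and 20 rises under median-of-ratios factors and 19 falls and 10 rises under quantile normalization.

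**Figure D4:**
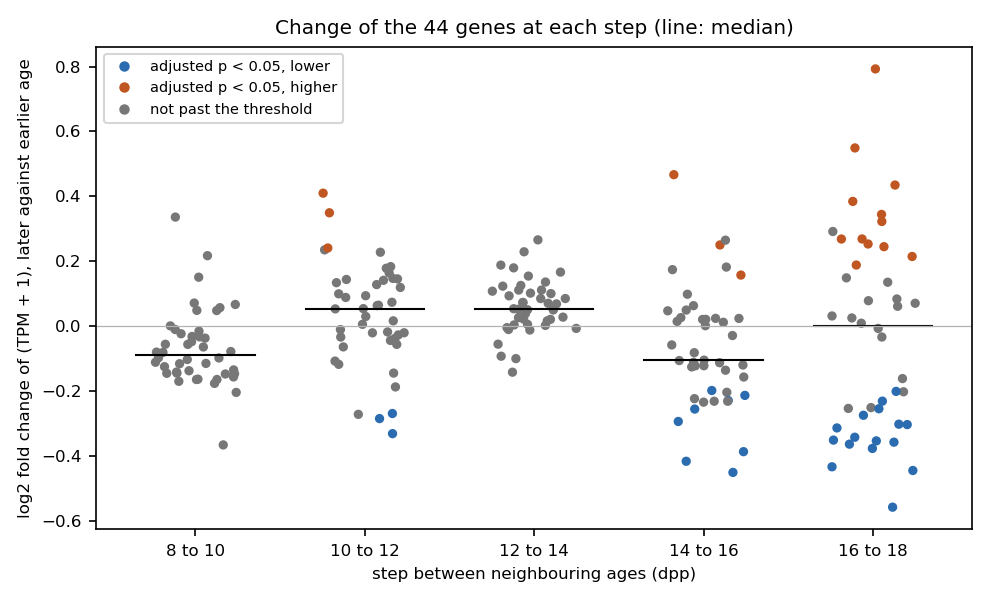
Log2 fold change of TPM + 1 of each of the 44 genes at the 5 steps between neighbouring ages, with a line at the median of the 44, jittered sideways for legibility. Points past an adjusted p of 0.05 are 0, 6, 0, 11 and 28 in order of age, and spread to both sides of 0.

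Within 18 dpp the mice were not alike. Mice 4 and 5 stood closer to the 16 dpp mice than mice 1 to 3 did, in falling genes such as Mcm2 (61.4 and 64.2 against 47.3 to 49.0 TPM) and in rising ones such as Rfc2 (96.2 and 102 against 129 to 135 TPM) and Rfc1 (53.9 and 57.1 against 75.7 to 85.5 TPM). With mice 1 to 3 of each age alone, 20 of the 44 genes were lower and 13 higher at 18 than at 8 dpp. Rfc1 (0.43, adjusted p = 0.0001) and Rpa3 (-0.27, adjusted p = 0.0425) then passed, and Orc3, Pold2 and Gins3 did not.

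Cell type markers moved with age in the same samples. The summed level of 6 spermatogonium markers went from 568 to 668 TPM at 8 dpp to 232 to 312 TPM at 18 dpp, with all 6 lower. That of 6 spermatocyte markers went from 239 to 349.9 TPM to 2035 to 2412 TPM, with all 6 higher. The 8 Sertoli cell markers summed to 2521 to 2871 TPM and then to 1006 to 1508 TPM, and 7 of the 8 were lower. Peritubular markers stood at 1051 to 1160 TPM and then 524 to 1034 TPM (1 of 5 lower), Leydig markers at 175 to 198 TPM and then 169 to 472 TPM (3 of 6 higher). Macrophage markers were at 26.4 to 33.3 and 39.7 to 78.6 TPM (4 of 5 higher), endothelial markers at 50.2 to 56.6 and 31.8 to 65.2 TPM (1 of 4 lower and 1 higher), and red blood cell markers at 243 to 681 and 249.8 to 367 TPM (0 of 5 called). The 6 spermatid markers summed to 17.0 TPM at most in the mice, with Prm1 and Prm2 under 1 TPM in each. In mice 4 and 5 of 18 dpp the Sertoli sum was 1508 and 1381 TPM against 1006 to 1048 TPM in mice 1 to 3, and the peritubular sum 1006 and 1034 against 524 to 586 TPM. In the adult samples the Sertoli sum was 69.1 to 103 TPM, the Leydig sum 206 to 270 TPM, the spermatogonium sum 8.94 to 11.4 TPM, the spermatocyte sum 2702 to 3014 TPM and the spermatid sum 872 to 1189 TPM. The spermatocyte markers did not move together from 18 dpp to the adult samples. Mean levels of Sycp1, Sycp3 and Hormad1 were 231, 502 and 291 TPM at 18 dpp and 106, 374.5 and 189 TPM in the adult samples. Those of Spag6, Piwil1 and Hspa2 were 1.62, 354 and 838 TPM and then 14.4, 634 and 1546 TPM. The part of other cell types in the values of the replication genes was not tested.

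Whether the genes were detected in samples enriched for spermatocytes after replication was asked in the adult samples. These values come from a separately made table, so they are set beside the juvenile ones without a test. The samples were enriched and not pure, and spermatid markers summed to 872 to 1189 TPM in them. How much RNA other cells added was not tested. At least 3 TPM in every adult sample was found for 37 of the 44 genes, and for 55.7% of all genes in both tables. The 7 below this level in every adult sample were Mcm2, Mcm4, Orc1, Cdt1, Pola1, Pole2 and Fen1, all of which had fallen by 18 dpp. For 29 of the 44 genes all 4 adult samples lay below every 18 dpp mouse (53.3% of all genes), for 9 they lay above (22.3% of all genes), and for 6 they overlapped. The 9 above were Orc5, Gmnn, Gins4, Pola2, Pold3, Rfc1, Rfc2, Rpa1 and Rrm1, and the 6 that overlapped were Mcm7, Orc3, Cdc6, Gins1, Gins2 and Pcna. The comparison of the adult samples with 18 dpp and that of 18 with 8 dpp share the 18 dpp mice, so their directions are not independent of each other.

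**Figure D5:**
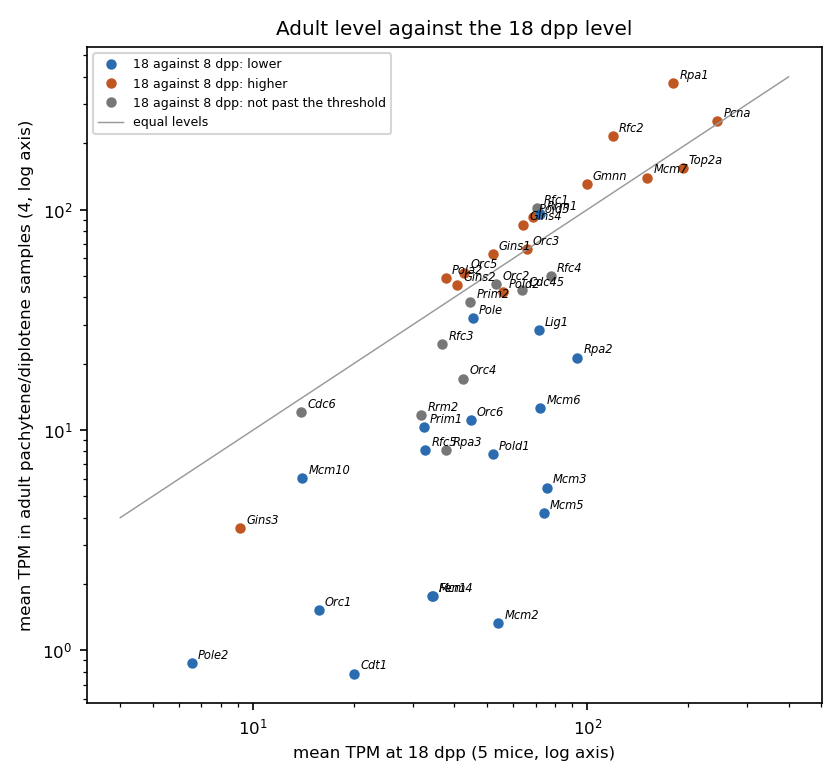
Mean TPM in the 4 adult pachytene/diplotene samples against mean TPM in the 5 mice at 18 dpp for 43 of the genes (log axes; Pola1, listed at 0 in 1 adult sample, is left out), coloured by the change from 8 to 18 dpp, with a line of equal levels. Mcm2 (1.34 against 54.0 TPM) and Cdt1 (0.785 against 20.0 TPM) lie far below the line, and Rpa1 (376 against 181 TPM) and Rfc2 (215 against 119 TPM) above it.

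Beyond the 44 genes, 46 other genes of replication and its checkpoints were counted in the same fit. From 8 to 18 dpp 17 of these were lower and 18 higher, again beside 36.3% and 31.8% of all genes, with a median log2 fold change of 0.06. From 16 to 18 dpp 10 were lower and 10 higher (21.7% each), beside 30.6% and 23.4% of all genes. Partners of the complexes above were on both sides here too. Mcmbp, which binds the MCM subunits, went from 79.5 ± 2.79 TPM (SD, n = 3) to 52.4 ± 9.95 TPM (SD, n = 5), a log2 fold change of -0.61 ± 0.11 (limma adjusted p = 2.35e-05), and was at 2.81 TPM in the adult samples. Of the small subunits of polymerase epsilon, Pole3 rose from 68.2 ± 2.73 to 126.8 ± 11.1 TPM (0.88 ± 0.08, adjusted p = 9.44e-11). The catalytic subunit of RNase H2, Rnaseh2a, which with Fen1 removes RNA from DNA, rose from 84.2 ± 3.85 to 454 ± 195 TPM (2.29 ± 0.24, adjusted p = 2.22e-09), while Rnaseh2b of the same enzyme fell from 44.8 ± 1.63 to 26.4 ± 3.40 TPM (-0.75 ± 0.12, adjusted p = 4.99e-06). In the adult samples they were at 1351 and 2.91 TPM. These 4 genes were picked for naming after their values were seen.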

How the data were processed

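Values were those of poly-A RNA-seq of 28 juvenile mice and 4 adult samples. The authors mapped 100 bp paired-end reads (Bowtie 1.0.0) against mm10 transcripts of Ensembl 75 and NONCODE 4 joined with piRNA precursors, and RSEM 1.2.8 gave TPM. TPM values were deposited for transcripts and, separately, for genes of the adult samples. The deposited juvenile gene table held exp(log2(TPM + 1)) - 1 and was brought back to TPM; the 44 genes were then within 0.02 TPM of their summed transcripts. TPM keeps no counts, so the depth is unknown and errors are spreads between mice.

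The test between ages was that of limma 3.58.1 (R 4.3.3) on log2(TPM + 1), a scale that understates changes of low genes, with 6 ages in 1 model, a prior variance trend, and adjustment over 20368 genes (threshold 0.05). On simulated data the fit was tested before use. Gene coordinates, overlaps and transcript types were taken from GENCODE M21 (GRCm38, the build of mm10) and promoters from RefSeq. The 2 mice of 8 dpp omitted by the study were not used here, nor was the authors' column assigning genes to substages.

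Given in full were, per role, the genes of largest and smallest change from 8 to 18 dpp, every gene called against the direction of most, the 3 highest and 3 lowest in adult samples, and the 3 largest changes called at each step. Mcm2 is given by mouse as well, though it falls outside this rule. The members and lists were chosen with earlier results of these data known. Python 3.11.15, numpy 2.4.6, pandas 2.3.3 and matplotlib 3.10.9 were used.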

Additional observations from a re-analysis of the deposited data

Results flagged for a closer look

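In 264 groups of 4 or 5 samples (the 44 genes at 5 ages and in the adult samples), 12 samples (4.55%) lay far from the rest by Dixon's 95% criterion, about the 1 in 20 that chance gives. At 16 dpp mouse 1 was lowest for Mcm4 (43.4 TPM) and Orc1 (17.1 TPM) and highest for Orc3 (66.6 TPM). At 10 dpp mouse 3 was lowest for Mcm7 (97.8 TPM), mouse 5 lowest for Lig1 (85.8 TPM) and mouse 2 highest for Gins4 (55.9 TPM). At 14 dpp mouse 3 was lowest for Rfc3 (30.0 TPM) and mouse 6 highest for Rpa3 (57.7 TPM). In the adult samples, sample 2 was highest for Rrm1 (101.6 TPM) and lowest for Rrm2 (10.9 TPM), sample 3 highest for Mcm3 (7.05 TPM) and sample 4 lowest for Rfc2 (208 TPM).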

How the results depend on the processing

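The counts of genes lower and higher at 18 than at 8 dpp stayed within 1.5 times of 19 and 15 under the alternatives run, which were another pseudocount, a stricter filter and none, summed transcripts, median-of-ratios and quantile scaling, other prior variances, mice 1 to 3 alone or as a covariate, mouse number as a replicate block, the 2 ages alone, values as deposited, and each mouse left out. From 10 to 12 dpp the 3 rises became 1 with no filter and 6 with only the 2 ages in the fit. From 14 to 16 dpp the 8 falls became 5 with no filter or with median-of-ratios factors, and 3 with mice 1 to 3 alone or with the replicate block, and the 3 rises became 1 with no filter or no variance trend. From 16 to 18 dpp median-of-ratios factors gave 9 falls and 20 rises. The median log2 fold change of all genes from 8 to 18 dpp was -0.09 without further scaling, 0.05 with median-of-ratios factors and -0.26 with quantile normalization, so directions of small changes are relative to these. With each mouse left out, falls and rises ranged from 18 to 21 and 13 to 16 (18 against 8 dpp), 11 to 18 and 11 to 14 (18 against 16), 4 to 10 and 0 to 4 (16 against 14), and 2 to 3 and 1 to 4 (12 against 10), and genes differing among the 6 ages from 38 to 43. Rises from 10 to 12 dpp were 1 without mouse 1 of 10 dpp. From 14 to 16 dpp falls were 5 without mouse 1 or 6 of 14 dpp or mouse 1, 2 or 5 of 16 dpp and 4 without mouse 7 of 14 dpp, and rises were 1 without mouse 2 or 3 of 14 dpp or mouse 2 or 5 of 16 dpp and 0 without mouse 1 of 16 dpp.

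Mouse numbers did not pair the mice: deviations from the age means correlated with a median of 0.0147 in same-numbered pairs, and 3 of 57 pairs were above 0.1. With the replicate block the falls and rises from 8 to 18 dpp were 19 and 14. With only the bases before the start site searched, genes with either E2F core went from 14 to 6, with TTTCGCG from 7 to 4, and with TTTGGCG from 11 to 4. None of the 26 genes given in full by the stated rule, which leaves out Mcm2, turned its sign as a called gene. Apart from leaving out a mouse, 322 refits of their change from 8 to 18 dpp kept the call as it was, 10 lost it and 6 gained one. The cause of these moves was not tested.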
